A study of Macaca mulatta with 24 samples.

Results

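The outer 2 Mb of the chromosomes of the rhesus macaque were examined for DNA methylation in visceral (omental) white adipose tissue (WAT). A CpG was taken as a member when its coordinate lay at or below 2 Mb, or within 2 Mb of the largest coordinate in the data for that chromosome, on chromosomes 1 to 20. This rule used position only and gave 107655 CpGs of 790368 on these chromosomes, or 13.6%, from 40 chromosome ends. The low-coordinate ends held 60936 CpGs and the high-coordinate ends held 46719. The remaining 682713 CpGs of the same chromosomes, called the interior here, served for comparison. Coordinates were those of the deposited data, on the rheMac8 build, so an end is the edge of the assembled and measured sequence of a chromosome and not necessarily its telomere.

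The assay was reduced representation bisulfite sequencing, or RRBS. DNA is cut at CCGG sites with the enzyme MspI, treated with bisulfite and sequenced, and the percent of methylated reads is then read at each CpG. One biopsy from each of 24 females was used, 6 in each of 4 groups. The labels give all animals an age of 4 years, which may be that at another time than the biopsy, since the methods of the study give an older age for it. The controls (C) carried cholesterol implants and ate monkey chow. The T group carried testosterone implants and ate chow, the WSD group carried cholesterol implants and ate a high-fat western-style diet, and the T+WSD group received testosterone and the diet together. Biopsies were taken in year 3 of treatment. They were of whole tissue, so a shift in the share of cell types and a shift within cells cannot be told apart in any value given below. The labels number C as animals 1 to 6, T+WSD as 7 to 12, T as 13 to 18 and WSD as 19 to 24. Each group is thus a run of consecutive numbers, and anything that followed this order cannot be told apart from the treatments.

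In mammalian DNA most CpGs are methylated, and unmethylated CpGs are concentrated in CpG islands, which are dense in CpGs and often cover promoters. The sequence next to telomeres is rich in G and C, in genes and in CpGs, recombines often in meiosis and carries many segmental duplications shared between chromosomes. Methylation at the subtelomere depends on DNMT3B, a de novo methyltransferase, and its loss in people with DNMT3B mutations is accompanied by raised transcription of the telomeric RNA TERRA.

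RRBS sampled the ends densely. They covered 2.99% of the span of the 20 chromosomes, at 1346 measured CpGs per Mb against 263 in the interior. Of the end CpGs, 61879 (57.5%) had a value in all 24 animals, against 58.3% of the interior CpGs, and these complete CpGs were used for mean levels. On average 4.55% of the values at the ends and 4.51% of those in the interior were missing. The deposited values were percentages with no read numbers, so the depth of each CpG above the coverage minimum of the study is unknown, and each p-value measures the spread between these animals. Animal 16 of T lacked 17.4% of its values at the ends, more than any other animal.

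The chromosome ends were more methylated than the interior in every animal. The mean over the complete CpGs was 56.7% ± 0.717 (SD, n = 24 animals) at the ends and 43.2% ± 0.487 in the interior. The difference was 13.5 ± 0.274 percentage points, lay between 12.9 and 13.9 in single animals, and was positive in 24 of 24. A 2-sided permutation test that flipped the sign of the animals' differences gave p = 1e-05, the smallest that 100000 permutations can give. All animals were read at the same CpGs, so this p-value measures only how well the animals agree. It does not measure the spread between the 40 ends, which differed from their own interiors by -6.98 to 52.0 points. The size of the difference depended on which CpGs carried the weight: it was 10.2 points when incomplete CpGs were added and 5.10 points when each 1 kb tile counted once.

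Methylation was irregular over the outer 5 Mb and lower further in, and it did not drop at the 2 Mb boundary. The mean was 53.8% in the outermost 0.25 Mb, 59.5% from 0.25 to 0.5 Mb, 57.9% from 0.5 to 1 Mb and 57.6% from 1 to 1.5 Mb. Just inside the boundary, from 1.5 to 2 Mb, it was 54.1%, and just outside, from 2 to 2.5 Mb, it was 56.8%. The outermost 0.25 Mb was less methylated than its neighbour. Further in, the mean was 55.0% from 3 to 5 Mb, 48.8% from 5 to 10 Mb, 44.5% from 10 to 20 Mb and 38.5% beyond 20 Mb. In bins of 0.5 Mb up to 20 Mb, the controls were highest outside the ends, at 59.6% from 3 to 3.5 Mb. The density of measured CpGs peaked at 1518 per Mb between 0.5 and 1 Mb and fell to 202 per Mb beyond 20 Mb.

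**Figure D1:**
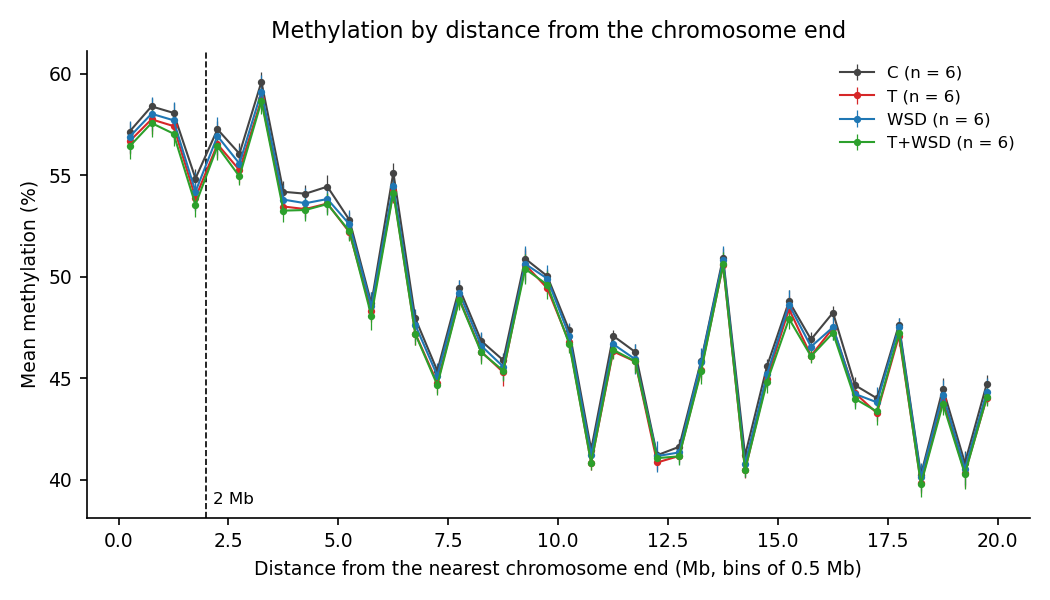
Mean methylation in percent (vertical axis, which does not start at 0) in bins of 0.5 Mb of distance from the nearest chromosome end (horizontal axis, Mb). Points are the means of the 6 animals of each group, bars are SD, and the dashed line marks 2 Mb. The 4 groups follow the same course. The level rises at the dashed line, is highest from 3 to 3.5 Mb and declines irregularly further in.

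The excess of methylation at the ends was found in CpG-dense sequence. Where a 1 kb tile held only 1 to 2 measured CpGs, the ends (71.3%) and the interior (71.2%) differed by 0.08 ± 0.22 points, with the ends higher in 16 of 24 animals. With 3 to 5 CpGs per tile the difference was 2.36 points, and with 6 to 10 it was 13.3 points. In tiles of 11 to 20 CpGs the ends stood at 55.6% and the interior at 26.3%, a difference of 29.3 ± 0.45 points. In the densest sequence the gap narrowed again, to 20.9 points in tiles of 21 to 40 CpGs and 10.3 points in tiles of 41 or more. When interior CpGs were weighted to the density of the ends, a choice made after the data were seen, the interior stood at 40.5% and the difference grew to 16.2 ± 0.292 points, so it was no smaller at matched density.

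**Figure D2:**
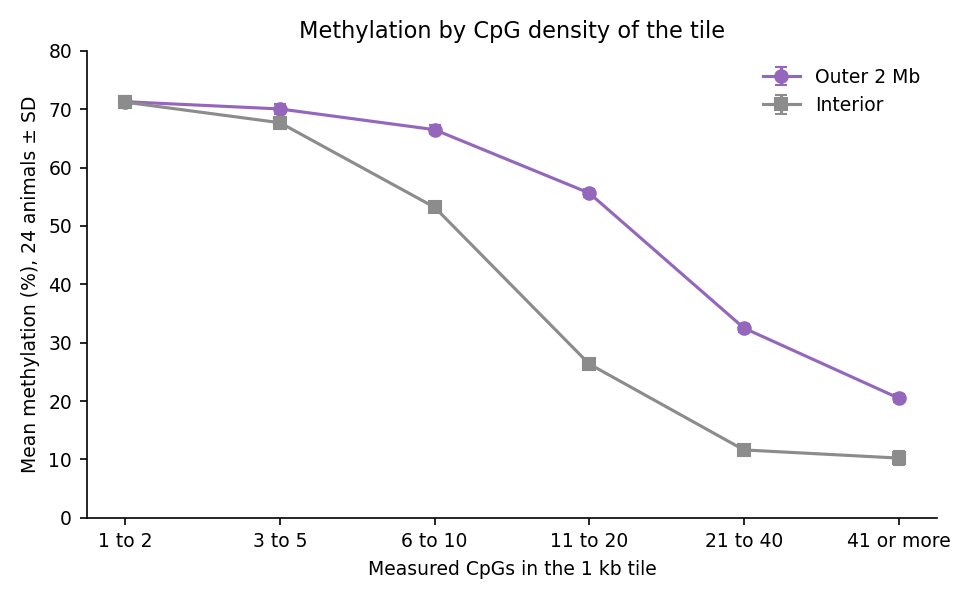
Mean methylation in percent (vertical axis) of CpGs in the outer 2 Mb and in the interior, by the number of measured CpGs in their 1 kb tile (horizontal axis). Points are means over 24 animals and bars are SD, most of them smaller than the symbol. The curves meet in tiles of 1 to 2 CpGs and lie 29.3 points apart in tiles of 11 to 20.

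The ends also held fewer unmethylated CpGs. CpGs with a mean under 20% made up 26.5% of the ends and 40.6% of the interior. CpGs between 20% and 80% made up 27.9% of the ends and 19.8% of the interior, and CpGs at or above 80% made up 45.6% and 39.6%. Within each class the spread between animals was similar. The median SD within groups was 2.51 points at the ends and 1.98 in the interior for the low class, 12.8 and 12.5 for the intermediate class, and 6.10 and 5.84 for the high class.

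The 40 ends differed widely from each other. Their means ran from 36.0% to 91.5% with a median of 56.5%, and 37 of the 40 lay above the interior of their own chromosome, each in all 24 animals. The other 3 lay below it in all 24. These were the high end of chromosome 13 (36.0% against an interior of 43.0%), the high end of chromosome 6 (37.0% against 39.8%) and the low end of chromosome 17 (40.3% against 43.0%). The 3 most methylated were the low end of chromosome 2 at 91.5% ± 1.16 (SD, n = 24), the high end of chromosome 5 at 74.5% ± 1.27 and the low end of chromosome 18 at 74.3% ± 0.956. The low end of chromosome 2 was also the most sparsely measured, with 181 CpGs, 67 of them complete, where the median end held 2122 CpGs and the fullest 7567. The median was 55.8% over the 20 low-coordinate ends and 57.1% over the high-coordinate ends.

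**Figure D3:**
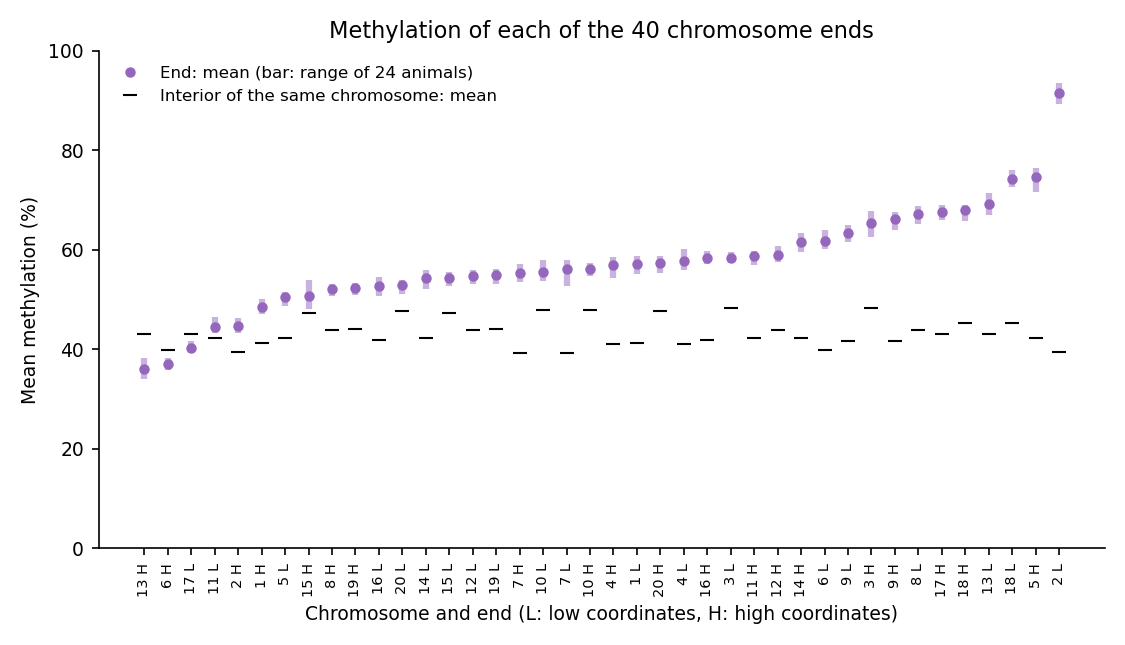
Mean methylation in percent (vertical axis) of each of the 40 chromosome ends, ordered from the lowest to the highest (horizontal axis: chromosome number with L for the low-coordinate and H for the high-coordinate end). Points are means over 24 animals, bars span the lowest to the highest animal, and dashes are the mean of the interior of the same chromosome. The ends run from 36.0% to 91.5%, and 3 of them lie under their dash.

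The question put to the 4 groups was whether testosterone, the diet or both went with another level at the ends. In C, the 6 animals ran from 56.9% to 58.0% with a median of 57.1%. In T they ran from 55.4% to 57.2% (median 56.7%), in WSD from 55.2% to 57.4% (median 57.2%) and in T+WSD from 55.5% to 57.0% (median 56.2%). The 4 ranges overlapped, and 4 of the 6 T+WSD animals lay below the lowest control, as did 4 of the 6 T and 2 of the 6 WSD animals. In the interior the same counts were 4 for T+WSD, 4 for T and 2 for WSD.

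The group mean at the ends was 57.2% ± 0.433 for C (SD, n = 6 here and below). It was 56.6% ± 0.662 for T, 56.8% ± 0.863 for the WSD group and 56.3% ± 0.625 under the combined treatment. T+WSD differed from C by -0.960 points, with 6 of 6 animals below the control mean. The 2-sided exact permutation test over all splits of the 12 animals gave p = 0.0173, and the Benjamini-Hochberg adjusted p over 4 comparisons was 0.0693. T differed by -0.672 points (exact p = 0.0455, adjusted 0.0909) and WSD by -0.404 points (exact p = 0.387, adjusted 0.517). The interaction of testosterone and diet was 0.116 points (permutation p = 0.846). Without animal 22 of WSD, the lowest of its group, the WSD difference was -0.0743 points and the interaction -0.213 points. None of these differences in level passed the adjusted threshold of 0.05. Those of T and T+WSD passed it with each 1 kb tile counted once (-0.968 and -1.25 points) and over the outer 5 Mb (-0.723 and -0.942 points). They also passed when single animals were left out, animal 16 for T and animal 8 or 12 for T+WSD. With single animals left out they were smallest at -0.433 points for T (without animal 18) and -0.799 for T+WSD (without animal 1 of C). Neither of these passed. In the interior the differences were -0.519 points for T, -0.222 for WSD and -0.537 for T+WSD, with adjusted p of 0.0996, 0.617 and 0.0996 by the same exact test.

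The contrast between ends and interior was smaller in T+WSD than in C. The difference of ends minus interior ran from 13.5 to 13.9 points in the 6 controls and from 13 to 13.6 in the 6 T+WSD animals, and 5 of the 6 T+WSD animals lay below the lowest control. The means were 13.7 ± 0.144 points in C and 13.3 ± 0.213 in T+WSD, a change of -0.423 points (2-sided exact permutation p = 0.00649, adjusted 0.0260). T (13.5 ± 0.288) differed from C by -0.153 points (exact p = 0.277, adjusted 0.369) and WSD (13.5 ± 0.296) by -0.181 points (exact p = 0.201, adjusted 0.369). The interaction was -0.0882 points (permutation p = 0.698). These values were unstable: T was 0.0546 with incomplete CpGs added and -0.0516 without animal 18, WSD was -0.0665 without animal 22, and the interaction was -0.203 without animal 22 and -0.0202 without animal 16.

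The size of this change or its p-value depended on which CpGs were counted and on their level. With incomplete CpGs added the change was of similar size, at -0.431 points, but did not pass (exact test, adjusted p = 0.165). It was -0.250 with each tile counted once (adjusted p = 0.104) and -0.201 for the outer 1 Mb (adjusted p = 0.260), both by the exact test. It was -0.130 points (exact p = 0.115) against interior CpGs weighted to the levels of the ends, an alternative chosen after the data were seen. Weighted instead to the CpG density of the ends, also a later choice, it was -0.500 points (exact p = 0.00216, the smallest this test can give). The decrease in T+WSD was also not largest at the tips: it was -0.73 points in the outermost 0.25 Mb, -1.29 from 1.5 to 2 Mb, -1.12 from 2.5 to 3 Mb and -0.40 beyond 20 Mb.

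**Figure D4:**
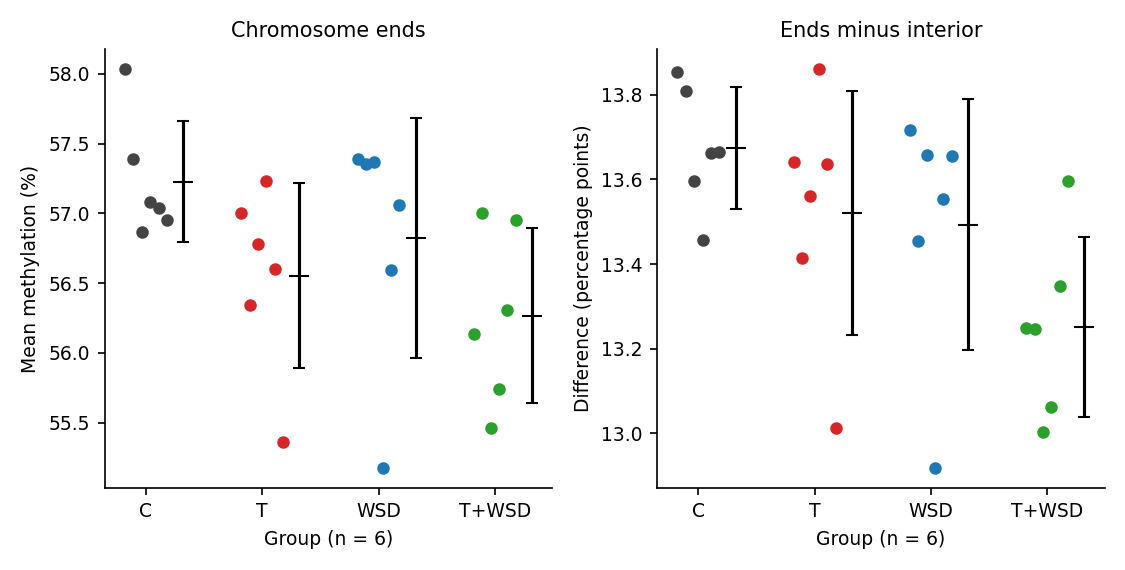
Left, mean methylation of the chromosome ends in percent; right, ends minus interior in percentage points. Each point is 1 animal of the group named on the horizontal axis (n = 6 each), the bar is the mean ± SD, and neither vertical axis starts at 0. In the right panel 5 of the 6 T+WSD animals lie below the lowest control.

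By mean level over the 24 animals, the decrease in T+WSD lay in CpGs of intermediate and of high methylation. End CpGs between 20% and 80% averaged 57.3% ± 0.737 in C and 55.2% ± 1.30 in T+WSD (SD, n = 6), a difference of -2.08 points. The corresponding interior CpGs averaged 56.0% ± 0.715 and 54.4% ± 1.11, a difference of -1.53 points. At CpGs at or above 80% the differences were -0.997 points at the ends and -0.939 in the interior, and at CpGs under 20% they were 0.207 and 0.174. These values by class are descriptive and were not tested.

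Each end was next treated as 1 window of 2 Mb and tested beside all other 2 Mb windows of the chromosomes with limma, with p-values adjusted over all 1216 windows. In T+WSD, 7 of the 40 ends (17.5%) were called, all of them lower than C, where 9.87% of all windows were called. An unadjusted p under 0.05 was found at 15 ends (37.5%), against 27.8% of all windows. At 5 of the 40 ends (12.5%) the 6 T+WSD animals and the 6 controls did not overlap, against 5.1% of all windows. The windows at the ends held a median of 1210 complete CpGs and the others 214, and the part of this difference in the counts was not tested. In T, limma called 0 of the 40 ends (0.329% of all windows) and 7 had an unadjusted p under 0.05 (19.6% of all windows). In WSD, limma called 0 of the 40 (0% of all windows) and 2 had an unadjusted p under 0.05 (9.29% of all windows). With each tile counted once, 13 ends were called in T+WSD and 1 in T. The share of all windows called with that weighting is not given here, so these counts have no background beside them.

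The low end of chromosome 10 had the smallest adjusted p. Its controls ran from 55.9% to 57.9% (median 56.4%) and its T+WSD animals from 54.1% to 55.2% (median 54.7%). The groups did not overlap, and the difference was -1.95 points (limma adjusted p = 0.00573).

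The largest decrease was at the high end of chromosome 3, where C ran from 65.1% to 67.9% (median 66.5%) and T+WSD from 63.4% to 65.1% (median 63.7%). These ranges met without crossing, and the difference was -2.60 points (limma adjusted p = 0.0195). At the low end of chromosome 13, one of the more methylated ends, C ran from 69.2% to 71.4% (median 70.4%) and T+WSD from 66.9% to 69.3% (median 68.5%). The ranges overlapped slightly, and the difference was -2.24 points (limma adjusted p = 0.0134).

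The other 4 called ends differed less. The high end of chromosome 12 was at 59.8% ± 0.56 in C and 58.1% ± 0.69 in T+WSD (limma adjusted p = 0.0195), without overlap. Both ends of chromosome 9 were called. The low end fell by 1.62 points (limma adjusted p = 0.0195), with overlapping ranges, and the high end fell by 1.62 points (limma adjusted p = 0.0222), without overlap. The low end of chromosome 11, the fourth least methylated of the 40, was at 45.2% ± 0.72 in C and 43.9% ± 0.37 in T+WSD (limma adjusted p = 0.0375), also without overlap. The count of called ends was 1 when animal 1 of C was left out, 2 without animal 9 of T+WSD and 4 without animal 10 of T+WSD. Shares of all windows without these animals are not given here.

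The small differences ran mostly downward. T+WSD was below C at 39 of 40 ends (77.4% of all windows), T at 39 of 40 (85.0%) and WSD at 35 of 40 (66.8%). The median difference over the ends was -0.807 points for T+WSD, -0.661 for T and -0.311 for WSD, against -0.510, -0.467 and -0.196 over all windows. All 3 comparisons share the same 6 controls. In T and WSD alike, the ends with the smallest unadjusted p were the low ends of chromosomes 10 and 13. In T the limma unadjusted p was 0.00430 for chromosome 10 and 0.00341 for chromosome 13, and in WSD it was 0.0109 and 0.0298.

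Few single CpGs at the ends differed. A CpG was called when its limma p, adjusted over all 841143 CpGs of the table, was under 0.05 and the group means differed by more than 10 points. In T+WSD 13 of the 107655 end CpGs (0.0121%) were called, 6 higher and 7 lower, where 0.0069% of all CpGs were called, 0.00321% higher and 0.00369% lower. In T 5 end CpGs were called, all lower (0.00464%, against 0.00559% of all CpGs), and in WSD 4 were called, all lower (0.00372%, against 0.00559%). Without animal 1 of C the T+WSD count was 0, and without animal 11 of T+WSD it was 20. With single animals left out the T count ran from 1, without animal 5 of C, to 5, and the WSD count from 2, without animal 2 of C or 21 of WSD, to 5. Shares of all CpGs with an animal left out are not given here. Unadjusted, 8.39% of end CpGs had p under 0.05 in T+WSD, 6.02% in T and 6.44% in WSD, beside 7.61%, 5.58% and 6.28% of all CpGs.

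The largest difference at a single CpG was at chr20:1148500. The 5 controls with a value lay between 42.1% and 69.2% (median 62.9%), and the T+WSD animals lay between 27.4% and 55.8% (median 39.0%). The T animals lay between 0% and 2.38%, and the WSD animals between 0% and 5.71%. The animals of C and T+WSD, numbered 1 to 12, and those of T and WSD, numbered 13 to 24, were thus fully apart at this CpG. The difference from C was -56.9 points in T (limma adjusted p = 2.3e-05) and -56.5 points in WSD (limma adjusted p = 1.3e-05).

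A second CpG, chr20:74579189 near the opposite end of that chromosome, split the animals in the same way. Controls ran from 59.8% to 81.01% (median 72.0%) and T+WSD from 63.9% to 79.6% (median 67.3%), while T ran from 17.1% to 50% (median 34.8%) and WSD from 9.09% to 31.4% (median 28.1%). Of the 17 end CpGs called in any comparison, these 2 were those at which the numbers 1 to 12 and 13 to 24 did not overlap. The part of the numbering in these values cannot be told apart from that of the treatments.

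At 2 of the other CpGs called in T and WSD, T+WSD lay on the same side of C. At chr16:1046177 the controls ran from 66.2% to 74.4%, T from 26.0% to 50%, WSD from 24.7% to 51.6% and T+WSD from 46.0% to 55.6%. All 18 treated animals lay below the lowest control there, although T+WSD itself was not among the calls. At chr6:46356 the controls with a value ran from 88.0% to 100%, T from 55.6% to 78.6%, WSD from 53.3% to 79.0% and T+WSD from 70.6% to 87.5%.

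One CpG was called in T and in T+WSD. At chr13:108277229 controls ran from 63.2% to 81.8% (median 72.2%), T from 36.2% to 51.1% (median 43.1%) and T+WSD from 34.8% to 54.1% (median 48.3%). Both groups were clear of the controls, as was WSD (43.1% to 61.1%, median 57.5%), which was not called there. The difference was -28.5 points in T (limma adjusted p = 0.0173) and -25.3 points in T+WSD (limma adjusted p = 0.0496).

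Among the other CpGs called in T+WSD, 4 were neighbours on chromosome 4 and 2 on chromosome 19, both within regions described below. Another lay in a region of 5 CpGs, chr14:1809626-1809901, that was higher in T+WSD by 22.5 points (Sidak adjusted p = 2.49e-05). At this CpG, chr14:1809722, C ran from 29.9% to 55.2% and T+WSD from 70.8% to 86.6%, and at chr11:132670139, which lay in no DMR, C ran from 20% to 50.5% and T+WSD from 64.7% to 84.4%, both gains without overlap. At chr7:168559985 C ran from 51.6% to 68.0% and T+WSD from 21.7% to 37.0%, a loss without overlap.

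In tiles of 1 kb with at least 3 CpGs, limma called 29 of 12249 end tiles in T+WSD (0.237%), 10 higher and 19 lower, where 0.206% of all tiles were called, 0.0793% higher and 0.127% lower. It called 0 end tiles in T (0.00793% of all tiles) and 0 in WSD (0.00397%). The T+WSD count was 1 when animal 1 or animal 3 of C was left out and 48 without animal 2 of C. Shares of all tiles without these animals are not given here. The median difference over the end tiles was -0.692 points in T+WSD, -0.519 in T and -0.289 in WSD, against -0.314, -0.308 and -0.119 over the tiles of the interior.

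Differentially methylated regions (DMRs) were runs of neighbouring CpGs with low p-values, combined by the comb-p procedure and kept at a Sidak p under 0.1 with a difference of more than 10 points. Of 425 DMRs of T+WSD against C, 68 (16%) lay at chromosome ends, which held 12.8% of all CpGs, and 29 of them were gains and 39 losses. In T 10 of 69 (14.5%) lay at the ends (4 gains, 6 losses) and in WSD 16 of 155 (10.3%, 6 gains and 10 losses). Over all DMRs, gains and losses numbered 186 and 239 in T+WSD, 13 and 56 in T, and 58 and 97 in WSD. The CpGs in DMRs made up 0.551% of the end CpGs in T+WSD, beside 0.363% of all CpGs, 0.078% in T, beside 0.056%, and 0.120% in WSD, beside 0.135%. Without animal 1 of C, 41 of 278 T+WSD regions (14.7%) lay at the ends. In T the count was 6 of 59 (10.2%) without animal 5 of C. It was 5 of 49 (10.2%) without animal 14 of T and 6 of 70 (8.57%) without animal 18 of T. In WSD it was 10 of 88 (11.4%) without animal 1 of C and 10 of 102 (9.80%) without animal 21 of WSD. It was 9 of 110 (8.18%) without animal 22 of WSD. The highest share was 20% in T (without animal 1 of C) and 13.9% in WSD (without animal 4 of C). In T+WSD the share ran from 11.5% (54 of 470, without animal 11 of T+WSD) to 16.7% (without animal 8 of T+WSD). The T+WSD regions at ends had a median length of 172.5 bp, held a median of 8 CpGs and differed by a median of 18.3 points in size, against 19.3 points for the DMRs elsewhere. When the correlation between neighbours was estimated from z-scores, a setting added after the data were seen, 37 of 294 T+WSD regions (12.6%), 2 of 14 T regions (14.3%) and 4 of 49 WSD regions (8.16%) lay at the ends.

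The 68 regions fell on 25 of the 40 ends. The low end of chromosome 19 held 9 (5 gains, 4 losses), and each end of chromosome 16 held 6. These ends were also well measured, with 7567 CpGs on chromosome 19 and 3179 (low) and 4070 (high) on chromosome 16. The low end of chromosome 20 held 6753, and the median end 2122. All regions were losses at the low end of chromosome 20 (5), at the low end of chromosome 10 (3) and at the low end of chromosome 18 (3). The regions named below were taken by a rule of size, the 4 largest gains and the 4 largest losses of each comparison among regions of at least 3 CpGs.

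The largest gain in T+WSD was chr16:1433066-1433137, with 4 CpGs. Controls ran from 10.6% to 71.7% (median 43.5%) and T+WSD animals from 66.8% to 97.1% (median 77.9%). A single control overlapped the T+WSD range, and the means differed by 37.8 points (Sidak adjusted p = 0.00683). At chr20:73268425-73268461, with 3 CpGs, C ran from 17.3% to 50.3% (median 32.7%) and T+WSD from 50.9% to 78.9% (median 72.1%). These groups did not overlap, and the means differed by 34.8 points (Sidak adjusted p = 0.0134).

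The high end of chromosome 4 held a region with higher levels in all 3 treated groups, chr4:171431540-171431582, with 6 CpGs in 43 bp. Controls ran from 30.2% to 40.6% (median 35.8%). T ran from 52.7% to 58.6% (median 54.9%), WSD from 47.0% to 73.4% (median 61.7%) and T+WSD from 54.7% to 80.7% (median 64.7%). No treated animal of the 18 reached down to the highest control. The region was a DMR in each comparison with C, at 19.2 points in T (Sidak adjusted p = 1.66e-05), 23.5 in WSD (Sidak adjusted p = 7.96e-08) and 30.4 in T+WSD (Sidak adjusted p = 5.55e-10). Because the comparisons share the controls, the calls are not independent. No other CpG within 1 kb had been measured there.

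About 1 Mb further out on the same chromosome, chr4:172513136-172513355 held 7 CpGs. C ran from 35.4% to 60.6% (median 49.4%), T from 48.1% to 75.4% (median 66.6%), WSD from 62.7% to 82.8% (median 74.9%) and T+WSD from 68.1% to 91.6% (median 74.5%). WSD and T+WSD lay fully above C, and T overlapped it. The gain was 24.2 points in WSD (Sidak adjusted p = 0.000179) and 29.3 in T+WSD (Sidak adjusted p = 3.77e-06). The 7 flanking CpGs within 1 kb moved the other way in T+WSD, by -6.06 points.

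The largest loss in T+WSD was chr16:75255976-75256046, with 4 CpGs. The 5 controls with a value ran from 21.8% to 71.7% (median 41.4%) and T+WSD from 7.14% to 27.1% (median 15.7%). The ranges overlapped, and the means differed by -28.4 points (Sidak adjusted p = 0.0945). A neighbouring region, chr16:75255557-75255629 with 6 CpGs, ran from 41.1% to 65.9% in C (median 50.3%) and from 22.2% to 37.4% in T+WSD (median 28.0%). Here the groups did not overlap, and the means differed by -22.8 points (Sidak adjusted p = 0.00986).

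At chr3:455560-455604, with 4 CpGs, C ran from 71.1% to 83.7% (median 79.9%) and T+WSD from 43.5% to 61.9% (median 57.0%), without overlap. The means differed by -23.4 points (Sidak adjusted p = 0.0980). At chr19:1071817-1071996, with 8 CpGs, C ran from 54.1% to 73.4% (median 65.1%) and T+WSD from 38.8% to 45.8% (median 41.1%), also without overlap. The means differed by -21.3 points (Sidak adjusted p = 8.08e-08), with T at 51.9% ± 6.81 and WSD at 51.4% ± 8.92 between them. This region was also a DMR in T and in WSD (-11.8 points in WSD, Sidak adjusted p = 0.0280).

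**Figure D5:**
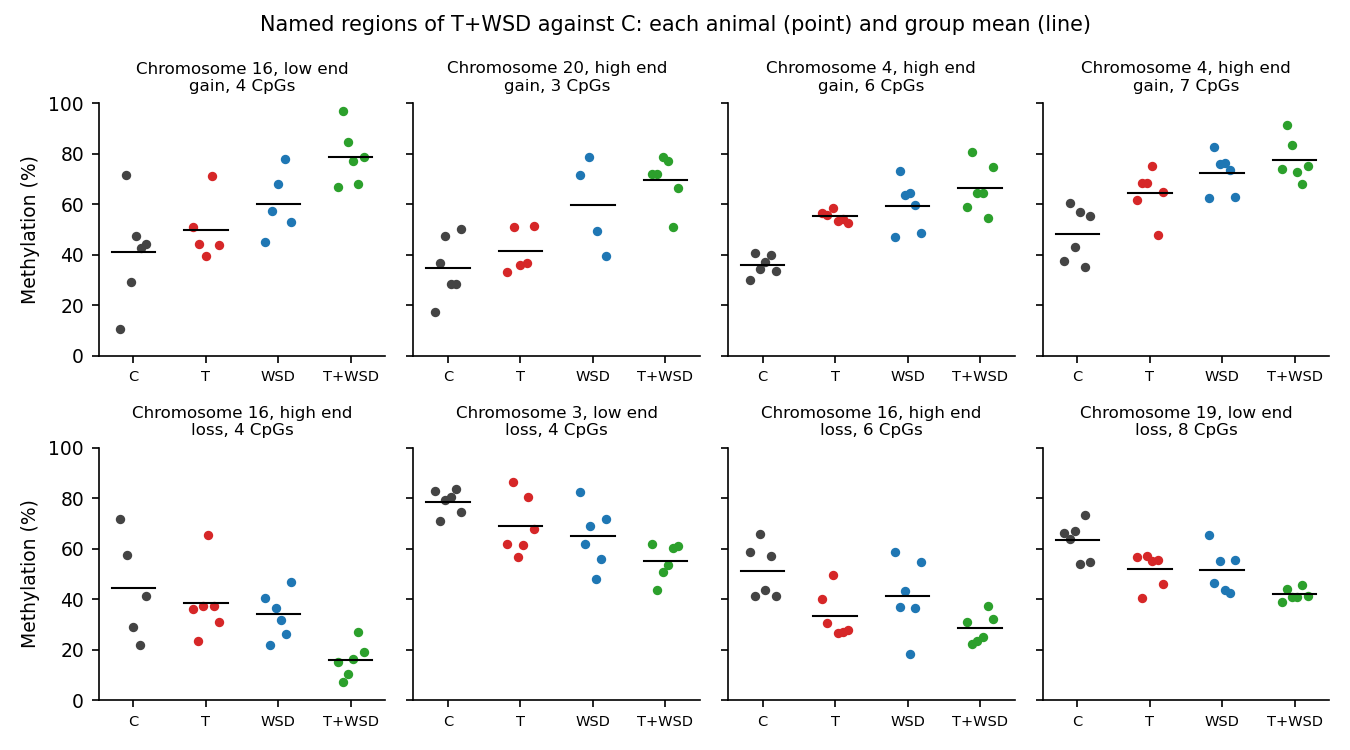
Methylation in percent (vertical axes, 0 to 100) of the 4 largest gains (top) and the 4 largest losses (bottom) of T+WSD against C at chromosome ends. Each point is the mean of 1 animal over the CpGs of the region, lines are group means, and animals without a value are absent. The means of T and WSD lie between those of C and T+WSD in all 8 panels. The regions were picked by the difference between C and T+WSD, which favours these groups as the extremes. The first panel of each row shows overlap of T+WSD with C.

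In WSD, apart from both chromosome 4 regions, the largest gains were at the low ends of chromosomes 5 and 15. At chr5:83265-83316, with 9 CpGs, C ran from 5.58% to 16.1% (median 8.41%) and WSD from 6.71% to 52.2% (median 30.8%), with overlap (difference 21.7 points, Sidak adjusted p = 0.0394). At chr15:1933234-1933286, with 4 CpGs, C ran from 11.02% to 27.6% (median 19.4%), WSD from 23.4% to 49.0% (median 38.8%) and T from 25% to 43.3% (median 32.6%). Both overlapped C at its upper edge. This region was a DMR in WSD (17.7 points, Sidak adjusted p = 0.000868) and in T (14.05 points, Sidak adjusted p = 0.0453).

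The largest loss in WSD was chr19:554626-554690, with 6 CpGs. The 5 controls with a value ran from 44.6% to 81.7% (median 58.3%) and the 5 WSD animals from 12.6% to 43.3% (median 15.8%). They did not overlap (-35.1 points, Sidak adjusted p = 0.00365), though 24.3% of the values in this region were missing. The 5 T+WSD animals with a value ran from 9.09% to 39.9%, also below all these controls, although the region was no DMR in T+WSD. At chr6:905718-905909, with 10 CpGs, C ran from 73.7% to 89.97% (median 85.2%) and WSD from 28.4% to 71.4% (median 59.0%), without overlap (-27.2 points, Sidak adjusted p = 0.0984). At chr15:1670079-1670366, with 7 CpGs, C ran from 52.2% to 93.5% (median 79.4%) and WSD from 39.2% to 66.4% (median 52.9%), with overlap (-25.6 points, Sidak adjusted p = 0.0328).

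The remaining large loss in WSD, chr20:1148486-1148544 with 7 CpGs, contained the CpG at 1148500 that split the animals by number. C ran from 59.3% to 77.9% (median 76.9%) and WSD from 28.2% to 57.9% (median 43.4%), without overlap. The difference was -28.3 points (Sidak adjusted p = 0.00828), and over the 6 CpGs other than that one it was -23.6 points. Over those 6 CpGs the means were 74.2% in C, 67.6% in T+WSD, 64.5% in T and 50.6% in WSD. T (42.4% to 64.6%) and T+WSD (47.9% to 76.6%) overlapped over the whole region.

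The T gains not yet described varied widely between animals. At chr14:1836367-1836675, with 13 CpGs, C ran from 16.3% to 69.9% (median 29.7%) and T from 37.3% to 77.1% (median 60.4%), with wide overlap (24.4 points, Sidak adjusted p = 0.0193). The 6 flanking CpGs moved the other way, by -19.9 points. At chr15:110322104-110322303, with 17 CpGs, C ran from 35.3% to 87.2% (median 65.4%) and T from 61.9% to 93.8% (median 85.7%), again with overlap (19.2 points, Sidak adjusted p = 0.0948).

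The 4 largest of the 6 losses in T were at the ends of chromosomes 18, 5 and 10. At chr18:70159214-70159259, with 5 CpGs within 0.07 Mb of the end, C ran from 36.0% to 71.5% (median 51.05%) and T from 19.8% to 42.9% (median 29.4%), with overlap (-19.4 points, Sidak adjusted p = 0.00690). T there averaged 31.1% ± 9.03 and WSD 33.0% ± 5.55, while T+WSD averaged 51.9% ± 7.28 and C 50.5% ± 13.3. These means followed the numbering, 1 to 12 against 13 to 24, though single animals overlapped. The part of the numbering cannot be told apart from that of the treatments here either. At chr5:1612287-1612447, with 9 CpGs, C ran from 46.5% to 61.7% (median 55.6%) and T from 33.1% to 46.3% (median 37.2%), without overlap (-16.2 points, Sidak adjusted p = 0.0221).

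The next largest losses in T lay at the low end of chromosome 10. At chr10:1884878-1884970, with 9 CpGs, C ran from 24.7% to 51.05% (median 35.5%) and T from 12.2% to 28.9% (median 21.8%), with overlap (-15.6 points, Sidak adjusted p = 0.0843). WSD at 21.4% ± 6.58 and T+WSD at 21.4% ± 6.95 were close to T at 20.5% ± 6.16. At chr10:1850125-1850190, with 6 CpGs, C ran from 66.1% to 77.7% (median 72.2%) and T from 42.6% to 70.8% (median 58.4%), with overlap (-14.8 points, Sidak adjusted p = 0.000420). The remaining losses lay at the low ends of chromosomes 20 (chr20:1021913-1022042, -14.2 points, Sidak adjusted p = 0.000927) and 19 (chr19:1071817-1071996, -11.4 points, Sidak adjusted p = 0.0526).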

How the data were processed

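RRBS libraries of omental WAT from 24 females were processed by the authors with Trim Galore 0.4.2, FastQC 0.11.5 and Bismark 0.16.1 against rheMac8, and CpGs of low coverage were removed before deposit. The deposited values were percent methylation per CpG and animal, without read numbers, for 841143 CpGs. Genotypes of the animals were not analysed here.

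Mean levels used CpGs with a value in all animals. Single CpGs, tiles of 1 kb (at least 3 CpGs) and windows of 2 Mb (at least 50 complete CpGs) were arcsine square root transformed and fitted in limma 3.58.1 (R 4.3.3) over all 4 groups, with Benjamini-Hochberg adjustment. DMRs were built with comb-p as re-implemented in Python 3.11.15: steps of 50 bp, joining within 300 bp, a Sidak p under 0.1, at least 2 CpGs and over 10 points. The scripts were tested on simulated data in which the noise of each CpG was drawn independently. The handling of correlation between neighbours, on which the DMR counts depend, was thus not tested there. Differences in mean level used 2-sided exact permutation tests, or 100000 permutations. The chromosome ends, region rules and tests were chosen with earlier results of these data known. Genes and sequence were not used here. Alternatives varied the CpGs, weighting, distance, thresholds, transformation and animals.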

Additional observations from a re-analysis of the deposited data

Results flagged for a closer look

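Dixon's test for a single distant value picked out 6 of 92 groups of values, where chance gives about 4.6. Animal 22 of WSD had a mean of 55.2% at the ends, with the nearest WSD animal at 56.6%, and a difference of ends minus interior of 12.9 points, with the nearest at 13.5. Animal 16 of T lacked 17.4% of its values at the ends, with the nearest T animal at 6.25%, and it stood at 65.4% in the chromosome 16 region from 75255976, with the nearest at 37.5%. In T+WSD, animal 10 stood at 57.3% in the chromosome 10 region from 1850125, with the nearest at 62.5%, and animal 8 stood at 8.01% in the chromosome 10 region from 1884878, with the nearest at 20.6%.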

How the results depend on the processing

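The higher level of the ends was 5.10 to 16.2 points under the alternatives of CpG choice, distance and density weighting. Against interior CpGs weighted to the ends' own levels, which equalises the levels by construction, it was 0.0124 points. It ranged from 13.47 to 13.51 with single animals left out. Of 91 alternatives other than leaving out animals, 67 kept both the direction and the call, or a count within 1.5 times. All 312 alternatives of the 24 comparisons over the 20 named regions kept the direction. These regions were picked for large differences in the same animals, so this outcome was largely set by the choice. With equal weight per tile the end level differed by -0.968 points in T and -1.25 in T+WSD, both past the threshold. With that weighting 13 ends were called in T+WSD and 1 in T, and the share of all windows is not given here. Over the outer 5 Mb the end level differed by -0.723 in T and -0.942 in T+WSD, both past the threshold. For ends minus interior, T+WSD fell short with incomplete CpGs added (-0.431), equal weight per tile (-0.250), the outer 1 Mb (-0.201) and level weighting (-0.130). T changed sign with incomplete CpGs (0.0546) and level weighting (0.0540), and the interaction did over the outer 5 Mb (0.0172). The causes were not tested. Without chromosome 19, T+WSD was -0.453.

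Among counts at ends, complete CpGs gave 3 single CpGs in T and 2 in WSD, and an adjusted p under 0.1 gave 7 in WSD and 38 in T+WSD. Tiles numbered 48 in T+WSD without the transformation, and 6 in T+WSD and 1 in T when only the 2 groups compared were fitted, which also left 9 WSD regions. No share over all CpGs or tiles is given for these settings. A change in count at the ends can thus not be told apart from one over the whole data. Autocorrelation of z-scores left 2, 4 and 37 regions in T, WSD and T+WSD.

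Leaving out single animals moved the end level from -0.808 to -0.433 in T, -0.518 to -0.0743 (without animal 22) in WSD and -1.11 to -0.799 in T+WSD. T passed the threshold without animal 16, and T+WSD without animal 8 or 12. The interaction, from -0.213 to 0.276, turned negative without animal 1 of C (-0.0452), 18 of T (-0.123), 22 of WSD (-0.213), 8 of T+WSD (-0.0308) or 12 of T+WSD (-0.0215). Ends minus interior moved from -0.221 to -0.0516 in T, -0.226 to -0.0665 in WSD and -0.492 to -0.373 in T+WSD, and the interaction from -0.203 to -0.0202. Windows called at ends ranged from 1 to 10 in T+WSD and were 0 in T and WSD. Single CpGs ranged from 1 to 5 in T, 2 to 5 in WSD and 0 to 20 in T+WSD, tiles from 1 to 48 in T+WSD, and regions from 5 to 12 in T, 9 to 21 in WSD and 41 to 63 in T+WSD. For windows, single CpGs and tiles, the shares over all features with an animal left out are not given here. The fewest T+WSD regions, and the fewest single CpGs, were found without animal 1 of C. No paired analysis was possible because the groups were made up of different females.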
